A study of Mus musculus with 2 samples.

Results

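Mitochondrial ribosomal protein genes were followed on 2 Illumina bead arrays of mouse leukaemic stem cells. They were taken by symbol: every gene whose platform annotation reads Mrpl or Mrps followed by a number, which gave 76 of the 19057 genes with a named probe, 48 Mrpl and 28 Mrps. Membership rested on the symbol and not on the values, but the family itself was chosen with earlier results of these data known. PirBTM MLL-AF9 cells (1 array) were set against wild-type MLL-AF9 cells (1 array). Both came from bone marrow of C57BL/6J mice labelled 9 weeks old, and both carried MLL-AF9, a fusion of Kmt2a and Mllt3 that causes acute myeloid leukaemia. Pirb encodes a receptor that restrains signalling in myeloid and B cells. The labels do not say what PirBTM alters in it, nor how MLL-AF9 was brought into the cells. There were no replicates, so the values compare these 2 RNA samples and no test between the groups was possible.

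The mitochondrial ribosome translates the few messages of mitochondrial DNA, which encode core subunits of the respiratory chain and the ATP synthase. Its rRNAs are transcribed inside the organelle, whereas its proteins are encoded in the nucleus, made in the cytosol and imported. Mrpl genes encode proteins of the large subunit, where peptide bonds form, and Mrps genes those of the small subunit, which reads the message, with a few names that do not match the subunit. Human acute myeloid leukaemia cells have been described as sensitive to drugs that block translation in mitochondria.

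Nuclear genes of mitochondrial proteins often carry short promoter elements for NRF1, ETS factors such as GABP, and YY1, so the promoters of 4 members are printed as examples. They were picked after values were seen: Mrpl22 and Mrpl9 for the NRF1 letters, Mrps27 for ETS and YY1 together, and Mrpl52 as the member with the highest ratio. Each runs from 120 bases before the annotated start through the first 30 bases after it (RefSeq, GRCm38.p6, plus strand), and capitals mark the motif letters found on either strand. The windows lie at chr11:58171544-58171693 for Mrpl22, chr3:94443216-94443365 for Mrpl9, chr13:99344666-99344815 for Mrps27 and chr14:54426789-54426938 for Mrpl52.
Mrpl22: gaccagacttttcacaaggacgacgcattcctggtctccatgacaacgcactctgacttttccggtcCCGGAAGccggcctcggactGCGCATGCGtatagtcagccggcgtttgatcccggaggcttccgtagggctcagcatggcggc
Mrpl9: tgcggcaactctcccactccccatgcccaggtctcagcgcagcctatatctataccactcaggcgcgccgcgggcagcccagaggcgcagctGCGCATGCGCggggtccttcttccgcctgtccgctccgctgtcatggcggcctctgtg
Mrps27: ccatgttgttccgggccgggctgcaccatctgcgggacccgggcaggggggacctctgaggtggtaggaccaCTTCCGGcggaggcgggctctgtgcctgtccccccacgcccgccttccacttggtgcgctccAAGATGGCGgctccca
Mrpl52: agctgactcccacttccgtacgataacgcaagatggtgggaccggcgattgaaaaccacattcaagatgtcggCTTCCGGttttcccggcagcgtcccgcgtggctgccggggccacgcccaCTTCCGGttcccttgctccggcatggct

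In Mrpl22 an ETS match at -53 was followed by an NRF1 match at -33, counted in bases from the start, and Mrpl9 held the NRF1 letters at -28. Mrps27 had an ETS match at -48 and the YY1 letters at 15, just downstream of the start. Mrpl52 held 2 ETS matches, at -47 and 3. On the arrays Mrpl22, Mrpl9 and Mrps27 were dimmer in PirBTM cells (log2 ratios of -0.73, -0.74 and -0.59), while Mrpl52 was brighter (1.24). The Mrps27 value was -0.30 without background correction and -0.29 with cyclic loess, with median scaling and in the authors' deposited values.

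The 2 samples differed widely in cell-type markers. On the normalized linear scale the summed intensity of 9 erythroid markers was 70515 in PirBTM cells and 14268 in wild-type cells, that of 8 macrophage markers 55189 in PirBTM and 6272 in wild-type cells, and that of 5 B cell markers 13525 in PirBTM and 1763 in wild-type cells. Neutrophil, T and NK, and platelet markers were also brighter in sum, with 181947, 6050 and 3079 in PirBTM cells against 86914, 2135 and 487 in wild-type cells. The 9 genes of the MLL-AF9 programme summed to 1677 in PirBTM cells and 15489 in wild-type cells, and Eya1, Hoxa5 and Hoxa10 were above background in wild-type cells alone. On the PirBTM array these markers go against the label of leukaemic stem cells, and PirBTM cells below means the sample so labelled. What part the mix of cells plays in the values below was not tested, and fewer cells of a type cannot be told apart from less RNA per cell. Pirb had no named probe, so the genotype label was not checked on the arrays.

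Mitochondrial ribosomal protein genes were mostly dimmer in PirBTM than in wild-type cells, by a modest and similar amount. A gene is given by its brightest probe, as a background-corrected, quantile-normalized log2 intensity, and a ratio is the log2 intensity in PirBTM cells minus that in wild-type cells. Of the 76 genes, 70 were above background on both arrays at a detection p-value below 0.01, and none on 1 array alone. The median ratio of these 70 was -0.57, or 1.48-fold lower in PirBTM cells, while that of all 7858 genes measured on both arrays in this way was -0.22. Relative to that shift of all genes, the members lay 0.35 lower (a difference of -0.35, or 1.27-fold). The plot of intensities by gene shows most lines at a higher level in wild-type cells.

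**Figure D1:**
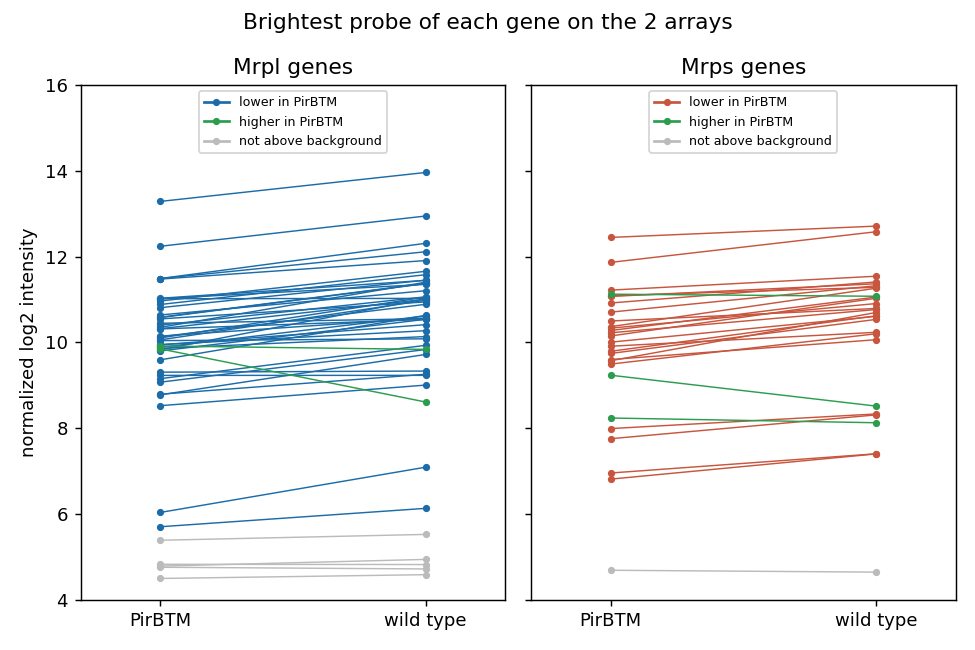
Normalized log2 intensity (vertical axis) of the brightest probe of each Mrpl gene (left) and Mrps gene (right) on the PirBTM and the wild-type array, with a line for each gene. Of the 70 genes above background, 65 were lower in PirBTM cells, and Mrpl52 and Mrps6 were the 2 genes at least 1.5-fold higher.

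Ratios below 0 were seen for 65 of the 70 members (92.9%), against 63.1% of all genes. At least 1.5-fold lower were 34 members (48.6%), against 27.2% of all genes, and at least 1.5-fold higher were 2 (2.86%), against 16.2%. At 2-fold the members did not exceed the background: 5 were lower (7.14%), against 9.86% of all genes, and 1 was higher (1.43%), against 9.77%. With ratios taken relative to the median of all genes, a centring added after values were seen, 12 members were at least 1.5-fold lower (17.1%), against 15.8% of all genes, and 2 were at least 1.5-fold higher (2.86%), against 21.8%. Measured that way, the members' share of lower genes was near the background and few members were higher; 58 of 70 lay under the median of all genes. With cyclic loess in place of quantile normalization, 11 members were at least 1.5-fold lower, against 14.6% of all genes, and none was 2-fold lower (-0.95 for Mrpl48).

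The members' ratios lay closer together than those of all genes. They had an SD of 0.40, or 0.31 without Mrpl52 and Mrps6, against 0.97 for all genes, and the range between quartiles was 0.44 for members and 0.89 for all genes. Comparable gene groups were as close: the SD was 0.31 over nuclear-encoded respiratory chain subunits and 0.34 over cytosolic ribosomal proteins. Within 0.30 of their own median lay 47 of 70 members (67.1%), against 35.8% of all genes around theirs. That distance is the measuring SD of a single probe's ratio, estimated from the disagreement of paired probes in 2944 genes. It leaves out variation between animals and between RNA preparations.

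**Figure D2:**
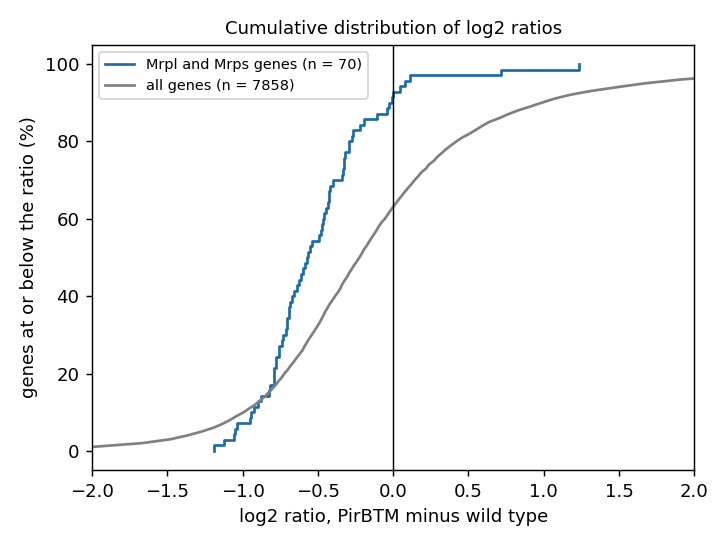
Cumulative share of genes (vertical axis, %) at or below each log2 ratio of PirBTM minus wild type (horizontal axis, cut at -2 and 2) for the 70 members and for all 7858 genes above background on both arrays. The members' curve is steeper and lies to the left over most of its course, with 92.9% of members and 63.1% of all genes below 0.

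For most members the same direction held in the signals as scanned. Before any correction or normalization, 53 of the 70 members had the lower signal on the PirBTM array, although that array was the brighter one (median signal of 161 in PirBTM cells and 148 in wild-type cells). Yet Mrpl3, Mrpl14, Mrpl16, Mrpl20, Mrpl37, Mrpl38, Mrpl50 and Mrpl51 had the higher scanned signal on the PirBTM array and a ratio below 0. The same held for Mrps2, Mrps12, Mrps25 and Mrps27, so the sign of these ratios comes from the correction and normalization. The median ratio of the scanned signals was -0.27 for members and 0.10 for all genes. The share of all genes with the lower scanned signal on the PirBTM array is not given here. Among all probes, the members' probes had a median rank at percentile 91.7 in PirBTM cells and 94.3 in wild-type cells. All genes were then split into 4 equal classes by brightness. In the brightest class the median ratio was -0.63 over its 32 members and -0.20 over all its genes, and in the next class -0.57 over 28 members and -0.19 over all. The dimmer classes held few members: the median was -0.40 over 6 members and -0.21 over all genes in the third, and -0.52 over 4 members and -0.30 over all genes in the dimmest. None of the 6 was at least 1.5-fold lower, against 30.2% of all genes in that class.

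Large-subunit genes by name had a median ratio of -0.64, with quartiles of -0.77 and -0.37. Of 43 genes, 41 lay below 0, against 63.1% of all genes. At least 1.5-fold lower were 23 of them (53.5%), against 27.2% of all genes, and at least 1.5-fold higher was 1. Small-subunit genes had a median of -0.54, with 24 of 27 below 0, 11 (40.7%) at least 1.5-fold lower and 1 higher. The medians of the 2 groups differed by -0.10 (Mrpl minus Mrps), a difference that was not tested. With cyclic loess 7 of 43 Mrpl and 4 of 27 Mrps genes were at least 1.5-fold lower, near the 14.6% of all genes. Mrps30 and Mrps18a encode proteins that sit in the large subunit; counted there, the medians were -0.62 and -0.55.

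**Figure D3:**
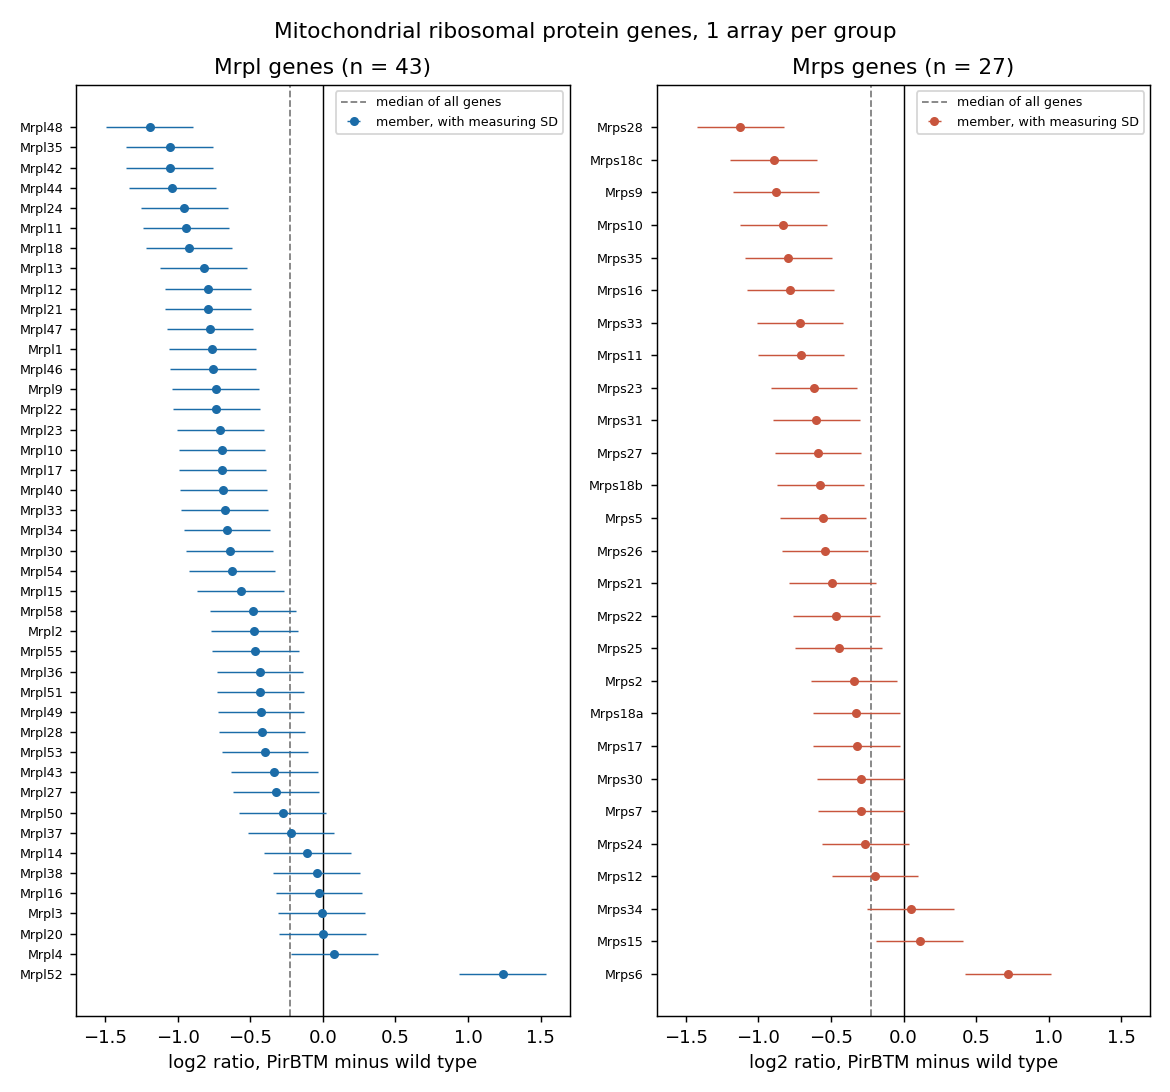
Log2 ratio of PirBTM minus wild type (horizontal axis) for each Mrpl gene (left) and Mrps gene (right) above background on both arrays, sorted, with a bar of 1 measuring SD (0.30) on each side. Dashed lines mark the median of all genes (-0.22); Mrpl48 (-1.19) and Mrps28 (-1.12) are the lowest and Mrpl52 (1.24) and Mrps6 (0.72) the highest.

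Among proteins of the large subunit with a bacterial counterpart, 28 of 30 genes were above background, with a median ratio of -0.68. Of the 28, 17 (60.7%) were at least 1.5-fold lower, against 27.2% of all genes, and none was at least 1.5-fold higher. Mrpl35 had a log2 intensity of 6.03 in PirBTM cells and 7.09 in wild-type cells, a ratio of -1.05 on a dim probe. Mrpl24, at the exit of the peptide tunnel, had 10.10 in PirBTM cells and 11.05 in wild-type cells. Mrpl18, a protein of the central protuberance, had 10.06 in PirBTM and 10.98 in wild-type cells. Mrpl33, the brightest member, had 13.28 in PirBTM cells and 13.96 in wild-type cells. Others of this class at least 1.5-fold lower were Mrpl1, Mrpl9, Mrpl10, Mrpl11, Mrpl12, Mrpl13, Mrpl17, Mrpl21, Mrpl22, Mrpl23, Mrpl30, Mrpl34 and Mrpl47, with ratios between -0.94 and -0.64.

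The 3 genes listed for the stalk of the large subunit, where translation factors bind, all had ratios below 0. Mrpl12, the stalk protein itself, had a log2 intensity of 10.58 in PirBTM cells and 11.37 in wild-type cells, a 1.73-fold lower level. Mrpl10, which anchors the stalk, had 10.88 in PirBTM and 11.58 in wild-type cells, and Mrpl11, at its base, 8.78 in PirBTM and 9.72 in wild-type cells. All 3 were at least 1.5-fold lower, against 27.2% of all genes. Around the tunnel exit, where the new peptide leaves towards the inner membrane, the 6 genes above background were all at least 1.5-fold lower, with a median of -0.76. Besides Mrpl24 they were Mrpl17, Mrpl47, Mrpl44 (9.59 in PirBTM cells and 10.63 in wild-type cells), Mrpl22 (9.88 in PirBTM and 10.61 in wild-type cells) and Mrpl23 (12.24 in PirBTM and 12.94 in wild-type cells). Mrpl45, which tethers the ribosome to the inner membrane, was not above background on either array. These lists are small and were drawn up with earlier results known, so the counts describe them only. With cyclic loess in place of quantile normalization, 1 of the 3 stalk genes and 2 of the 6 exit genes were at least 1.5-fold lower. All 9 stayed below 0, and 14.6% of all genes were at least 1.5-fold lower.

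Of the regions listed, the central protuberance, which faces the small subunit, was the most mixed, with ratios between -1.19 and 1.24 over 8 genes. Without Mrpl52 the ratios ran from -1.19 to -0.04, and 7 of the 8 genes lay below 0. Mrpl48 had the lowest ratio of all members, at 9.83 in PirBTM cells and 11.02 in wild-type cells (2.28-fold lower), and its 3 probes above background gave -1.19 to -1.17. Mrpl46 and Mrpl40 were at -0.76 and -0.69, and Mrpl55 and Mrpl27 at -0.47 and -0.32. Mrpl38 hardly differed, with 10.04 in PirBTM cells and 10.08 in wild-type cells. Mrpl52 went the other way, with 9.85 in PirBTM cells and 8.61 in wild-type cells, 2.36-fold higher. Its scanned signal was 1152 in PirBTM cells and 466 in wild-type cells, from 1 probe, so that no second probe bears on it.

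Large-subunit proteins listed as special to mitochondria had a median of -0.42 over 17 of 21 probed genes. Of the 17, 6 (35.3%) were at least 1.5-fold lower, against 27.2% of all genes, and 1 was higher. The list also holds Mrps18a, a paralogue of the bacterial S18 protein, and Mrpl58, so not all of it lacks a bacterial relative. Mrpl42 had 10.35 in PirBTM cells and 11.40 in wild-type cells. Mrpl58, a peptide-releasing factor that became a ribosomal protein, had 8.52 in PirBTM cells and 9.00 in wild-type cells. Mrps30 had 11.07 in PirBTM and 11.36 in wild-type cells, and Mrps18a 9.91 in PirBTM and 10.23 in wild-type cells, both nearer the median of all genes. Mrpl37, Mrpl43, Mrpl49, Mrpl50, Mrpl51 and Mrpl53 had ratios between -0.43 and -0.22, and Mrpl54 was at -0.62. The difference in median from the class with bacterial counterparts was not tested. With cyclic loess, 3 genes of this class and 4 with bacterial counterparts were at least 1.5-fold lower, against 14.6% of all genes. The medians were then -0.18 and -0.44.

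In the small subunit, genes with a bacterial counterpart had a median of -0.49 (15 of 16 genes). Of the 15, 6 (40.0%) were at least 1.5-fold lower, against 27.2% of all genes, and 1 was higher. Mrps28 was lowest, with 9.57 in PirBTM cells and 10.69 in wild-type cells (2.18-fold lower). Mrps5 and Mrps12 belong to the part that keeps decoding accurate; Mrps5 had 7.75 in PirBTM cells and 8.31 in wild-type cells, and Mrps12 11.08 in PirBTM and 11.28 in wild-type cells. Mrps24, among the 4 brightest members, had 12.44 in PirBTM cells and 12.71 in wild-type cells. Mrps9, Mrps10, Mrps11 and Mrps16 had ratios between -0.88 and -0.71, and Mrps2, Mrps7, Mrps17 and Mrps21 between -0.49 and -0.29. Mrps6 was the exception, with 9.23 in PirBTM cells and 8.51 in wild-type cells (1.65-fold higher, 1 probe), and was under 1.5-fold without background correction (0.56) and in the authors' deposited values (0.58). Slc5a3, whose locus overlaps Mrps6, was not above background on either array.

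Small-subunit proteins listed as special to mitochondria, Mrps18b among them, had a median of -0.57 over 13 genes, with an SD of 0.21. Of the 13, 5 (38.5%) were at least 1.5-fold lower, against 27.2% of all genes (none with cyclic loess, where the median was -0.29). Mrps33 had 11.86 in PirBTM cells and 12.58 in wild-type cells, and Mrps27, an RNA-binding pentatricopeptide repeat protein, 6.81 in PirBTM and 7.40 in wild-type cells. The scanned signal of Mrps27 was 266 in PirBTM cells and 265 in wild-type cells, so its ratio comes from the correction and normalization. Mrps22, mutated in a human mitochondrial disease, had 9.60 in PirBTM cells and 10.06 in wild-type cells. Mrps23, Mrps26, Mrps31 and Mrps35 were between -0.79 and -0.54. The paralogues of the bacterial S18 protein spread out: Mrps18c had 10.36 in PirBTM cells and 11.26 in wild-type cells (-0.90), Mrps18b 10.33 in PirBTM and 10.90 in wild-type cells (-0.57), and Mrps18a was at -0.32. Among small-subunit proteins without an Mrps name, Ptcd3 was at -0.58 and Chchd1 at -0.52. Dap3, at -0.27, was near the median of all genes (-0.22). None of these genes was at least 1.5-fold lower, against 27.2% of all genes.

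A few members stood at nearly the same level on both arrays. Mrpl3, beside the catalytic centre, had 11.02 in PirBTM cells and 11.02 in wild-type cells with its brightest probe, and its other probe had a ratio of -0.47. Mrpl16 had 9.30 in PirBTM cells and 9.33 in wild-type cells, Mrpl20 9.23 in PirBTM and 9.23 in wild-type cells, and Mrpl4 9.91 in PirBTM and 9.83 in wild-type cells. Mrps34 had 11.12 in PirBTM cells and 11.07 in wild-type cells, and Mrps15 8.23 in PirBTM and 8.12 in wild-type cells. Mrpl3, Mrpl14, Mrpl16, Mrpl20, Mrpl37, Mrpl38 and Mrps12 changed sign with cyclic loess, and Mrpl3, Mrpl16, Mrpl20 and Mrpl38 also with scaling to a common median; the other 63 kept their sign under each normalization and background setting tried. Mrpl2, Mrpl28 and Mrpl36 were at -0.47, -0.42 and -0.43. Mrpl19, Mrpl32, Mrpl39, Mrpl57 and Mrps14 were, like Mrpl45, not above background on either array, and no ratio is given for them.

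Several genes were read by more than 1 probe, which gave a check within the arrays. Of 101 member probes above background on both arrays, 95 had a ratio below 0, with a median of -0.62. By their brightest probe, 63.1% of all genes were below 0. A share over all probes, or over all genes with several probes, is not given here. In 20 genes with at least 2 such probes, the brightest pair disagreed with an SD of 0.13 for a single probe's ratio, and in 19 of the 20 every probe was below 0. Probes of 1 gene differed by over 0.6 in Mrpl15 (6 probes, -0.93 to -0.21), Mrpl49 (4 probes, -1.05 to -0.42) and Mrps25 (3 probes, -1.31 to -0.45). In the brightest probe Mrpl15 had 10.64 in PirBTM cells and 11.20 in wild-type cells, Mrpl49 10.14 in PirBTM and 10.57 in wild-type cells, and Mrps25 6.95 in PirBTM and 7.40 in wild-type cells. The choice of probe thus changed the size in those 3 genes and not the sign.

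**Figure D4:**
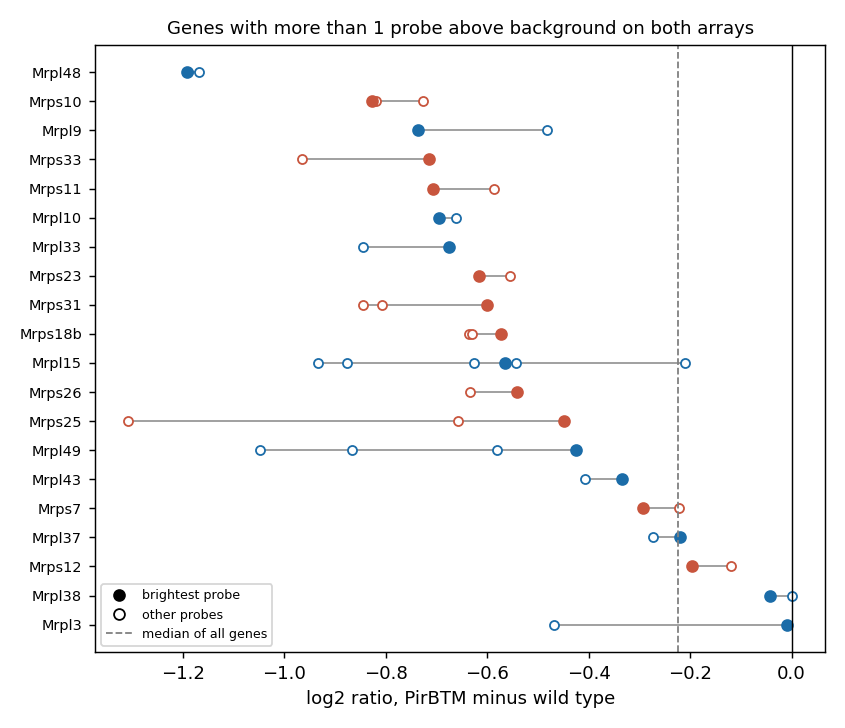
Log2 ratio of PirBTM minus wild type (horizontal axis) of every probe above background on both arrays, for the 20 members with more than 1 such probe; filled points are the brightest probe. The probes of Mrpl48 lie together (-1.19 to -1.17), while those of Mrps25 spread from -1.31 to -0.45.

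Other genes of mitochondrial translation were also mostly dimmer in PirBTM cells, by amounts that depended on the processing. Of 14 probed translation factors 13 were above background, with a median of -0.56. All 13 were below 0, against 63.1% of all genes. Of them 6 (46.2%) were at least 1.5-fold lower, against 27.2% of all genes, and none was higher. The median was -0.26 without background correction and -0.25 in the authors' deposited values, in each a difference of -0.10 from all genes. In these 2 settings 2 genes were at least 1.5-fold lower, against 17.4% and 17.6% of all genes. With cyclic loess 7 of 13 were below 0. Mtrf1, a release-factor family member, had 7.78 in PirBTM cells and 9.46 in wild-type cells, and Guf1, an elongation factor, 6.58 in PirBTM and 7.96 in wild-type cells, while Mtif3 and Gfm2 differed by less than the measuring SD (-0.04 and -0.01). Mitochondrial tRNA synthetases had a median of -0.51 over 12 of 16 genes. All 12 were below 0, against 63.1% of all genes, and 4 (33.3%) were at least 1.5-fold lower, against 27.2%. Ears2 (-1.30) and Pars2 (-1.10) were lowest and Lars2 (-0.25) and Wars2 (-0.02) highest. The synthetase median was -0.37 without background correction and -0.26 with cyclic loess. Genes that transcribe and maintain mitochondrial DNA had a median of -0.51 over 18 of 22, from Top1mt (-2.11) and Tefm (-1.17) to Polrmt (0.35) and Polg (0.44); with cyclic loess that median was -0.28.

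Assembly factors of the mitoribosome were more spread than its proteins, with an SD of 0.57 against 0.40 for members. The SD was similar for translation factors (0.50), genes of mitochondrial DNA upkeep (0.58) and large-subunit proteins listed as special to mitochondria (0.54). Over 18 of 22 assembly genes the median was -0.25, close to that of all genes. At least 1.5-fold lower were 7 (38.9%), against 27.2% of all genes, and none was higher. With cyclic loess 9 of the 18 were below 0, at a median of -0.02. Mtg1, a GTPase of large-subunit assembly, had 8.41 in PirBTM cells and 9.90 in wild-type cells, and Tfb1m, the methyltransferase of the small rRNA, 6.36 in PirBTM and 7.79 in wild-type cells. Noa1 and Mettl17 lay at 0.15 and 0.33. Among 9 transcription factors and coactivators of nuclear mitochondrial genes, a list that also holds Tfb1m, the median was -0.13, and it was above 0 with cyclic loess (0.13) and with median scaling (0.14). Gabpb1, a GABP subunit, was at -0.79, Esrra at 0.69 and the coactivator Ppargc1b at 2.27, with 8.43 in PirBTM cells and 6.16 in wild-type cells.

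**Figure D5:**
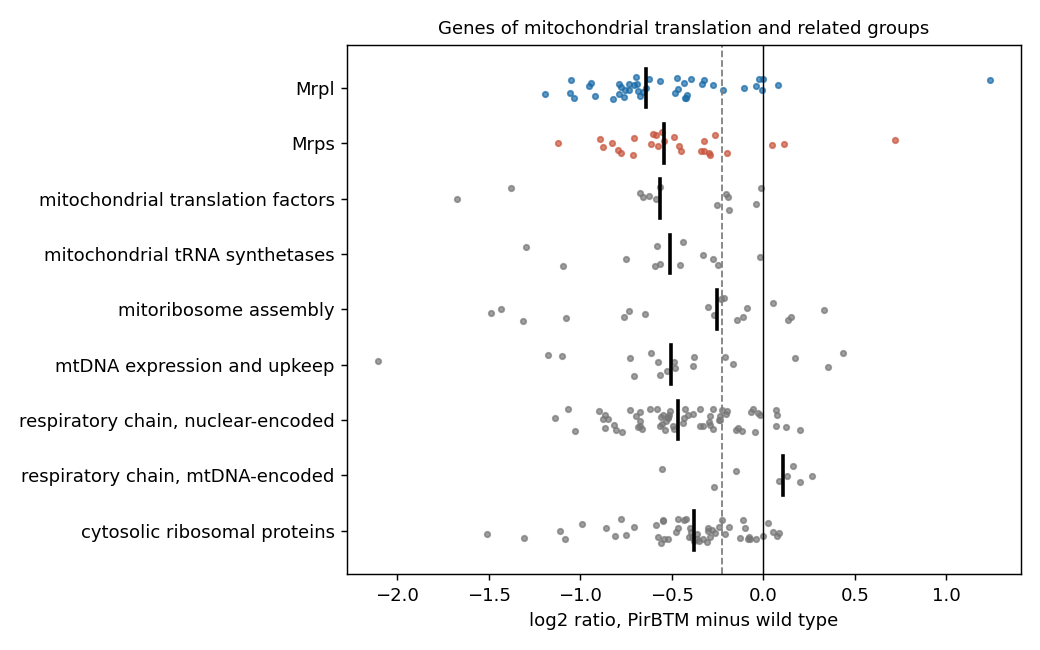
Log2 ratio of PirBTM minus wild type (horizontal axis) of each gene above background on both arrays, by gene group, with a black bar at the group's median and a dashed line at the median of all genes (-0.22). The median is -0.64 for Mrpl, -0.54 for Mrps and -0.56 for translation factors (-0.59, -0.42 and -0.25 in the authors' deposited values), and 0.11 for subunits encoded in mitochondrial DNA.

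Nuclear-encoded subunits of the respiratory chain and ATP synthase, the partners of what the mitoribosome makes, had a median of -0.46 over 64 of 67 genes. Below 0 were 59, against 63.1% of all genes. Of the 64, 19 (29.7%) were at least 1.5-fold lower, near the 27.2% of all genes, and none was higher. With cyclic loess 44 were below 0 and 6 at least 1.5-fold lower, at a median of -0.18. Ratios ran from Cox7b (-1.14) and Ndufa3 (-1.07) to Atp5h (0.13) and Uqcrc1 (0.20). Cytosolic ribosomal protein genes had a median of -0.38 over 53 of 60 genes, with 49 below 0 and 11 (20.8%) at least 1.5-fold lower, under the 27.2% of all genes. Their median was -0.09 with cyclic loess (36 below 0, 5 at least 1.5-fold lower) and -0.53 with median scaling (53 and 17). Rps4l (-1.51) and Rpl29 (-1.31) were lowest and Rps21 (0.07) and Rplp1 (0.09) highest. The order of these groups depended on the scaling: set against the median of all genes, mitochondrial and cytosolic ribosomal protein genes stood at -0.35 and -0.16 here, and both at -0.43 with scaling to a common median. So no difference between the 2 kinds of ribosome is called.

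The transcripts that the mitoribosome translates did not, as a group, share the lower values. This list of 8 probed genes was added after values had been seen. Their median ratio was 0.11, and 0.04 to 0.41 over the scalings. ND4 had 14.93 in PirBTM cells and 14.66 in wild-type cells, COX2 12.08 in PirBTM and 11.88 in wild-type cells, and CYTB 15.20 in PirBTM and 15.04 in wild-type cells, the last close to the top of the scale at 15.67. Of the 8 genes 3 were below 0, against 63.1% of all genes. Among these 3, ND5 had 6.79 in PirBTM cells and 7.35 in wild-type cells. ND6, close to background, had 5.68 in PirBTM cells and 5.95 in wild-type cells.

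Promoter windows from 250 bases before to 50 after the start were at hand for 67 of the 76 genes, 73 windows in all. Both strands were searched, and the share over all 17491 protein-coding genes with a window is given for each motif, a gene counting once; the last letters of the ETS motif can also begin the YY1 motif, and a gene with both counts under each. CCGGAAG, an ETS core, occurred in 38.8% of member genes and 12.9% of all genes. AAGATGGCG, for YY1, occurred in 11.9% of members and 2.14% of all genes, and GCGCATGCG, for NRF1, in 10.4% of members and 2.61% of all genes. CACGTG, the E-box, was no more frequent in members, at 7.46% of members and 8.91% of all genes. Much of the background consists of genes that are not active in these cells, so the shares were also taken over genes above background on both arrays: 40.3% of 62 members and 23.3% of 6431 genes for ETS, 12.9% and 4.37% for YY1, 8.06% and 4.76% for NRF1, and 8.06% and 12.7% for the E-box. ETS matches in members lay at a median of -17 from the start and YY1 matches at 19.5. In Mrps27 above they lay at -48 and 15.

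Having such letters went with no clear difference in ratio among the members. The median ratio was -0.57 in 35 members with any of the 4 motifs and -0.55 in 27 without. Members with the NRF1 letters had a median of -0.69, but they were 5 genes. Over all genes the same medians were -0.30 with any motif and -0.16 without. A match is a run of letters and not a bound site.

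Some members share a promoter region with a neighbour on the other strand. A gene that starts within 1000 bases and runs the other way was found for 23 of 67 members with a window (34.3%), against 8.48% of all genes with one. Among genes above background on both arrays these shares were 33.9% of 62 members and 14.7% of 6431 genes. Mrpl46 and Mrps11 are such a pair, with starts 42 bases apart and ratios of -0.76 and -0.71. In 14 pairs with a neighbour outside the family, both above background, the median was -0.51 for members and -0.41 for neighbours. All 14 members and 12 neighbours were below 0, against 63.1% of all genes. At least 1.5-fold lower were 6 members and 5 neighbours, against 27.2% of all genes. Mrpl18 and Tcp1, a chaperonin subunit, had -0.92 and -0.82, and Mrpl47 and Ndufb5, a complex I subunit, -0.78 and -0.88. Others parted: Mrps12 was at -0.20 and its neighbour Sars2 at -0.75, and Mrpl14 at -0.11 and Tmem63b at 0.85.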

How the data were processed

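The authors deposited a scanner table holding, per the file headers, the mean intensity and detection p-value of each probe, and a second table of normalized intensity values; neither labels nor headers name the scanner software. Scanner intensities were background-corrected with nec of limma 3.58.1 in R 4.3.3 (offset 16, background inferred from the detection p-values), followed by quantile normalization and log2. Of 45281 probes, 34885 had 1 gene, 18 several and 10378 were unnamed; 36.2% were above background in PirBTM cells and 33.4% in wild-type cells. Members were read from 132 probes (43 genes with 1 probe, 33 with several). Genes count here when above background on both arrays, where the plan had at least 1; this is among the 13 alternatives. Tables and plots used Python 3.11.15, pandas 2.3.3, numpy 2.4.6 and matplotlib 3.10.9, and the calculations were tested on simulated data.

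Named with both intensities are the 8 lowest and 8 highest members, the 4 brightest, those with probes over 0.6 apart and a set of role names; other lists give up to 4 genes. Assembly, synthetase, respiratory chain and marker lists, like the members, were chosen with earlier results of these data known. Both arrays lay on 1 BeadChip, so array position and genotype cannot be told apart. Promoter sequences come from RefSeq (GRCm38.p6). The number of arrays limits the precision.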

Additional observations from a re-analysis of the deposited data

How the results depend on the processing

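The medians of Mrpl, Mrps and all members and the ratios of Mrpl48, Mrps28, Mrpl52 and Mrps6 were recomputed under 12 alternatives each, and none of these changed direction; the 1.5-fold counts were recomputed under 13, and the count below 0 and the difference from all genes under 11. The median of all members ranged from -0.63 (probe with the lowest ratio) to -0.32 (cyclic loess), and the members' median minus that of all genes from -0.47 (no detection filter) to -0.32. With cyclic loess the medians were -0.38 for Mrpl and -0.28 for Mrps, 58 members were below 0, and 11 were at least 1.5-fold lower in place of 34; the median of all genes was then 0.03, and 14.6% of all genes were at least 1.5-fold lower and 22.7% higher, in place of 27.2% and 16.2%. With scaling to a common median those shares were 20.9% and 19.5%, and the Mrps median was -0.38. The Mrps median was -0.41 without background correction and -0.42 in the authors' deposited values, and each left 1 member at least 1.5-fold higher in place of 2. The Mrpl median was -0.52 with no detection filter. Centring on the median of all genes, added after the data were seen, left 12 members at least 1.5-fold lower, and leaving out Mrpl52 and Mrps6, also added, left 0 higher. Beyond centring, the causes of these moves were not tested. Mrpl35, on a dim probe, ranged from -1.05 to -0.42 and lost its 1.5-fold difference without background correction and in the authors' deposited values. No paired analysis was possible because each group had 1 array, so no array could be left out either. Dim probes limit Mrpl35, Mrpl51, Mrps25 and Mrps27, whose signals lay near background.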
